A study of Mus musculus with 6 samples.

Results

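The nuclear genes of the mitochondrial respiratory chain were followed in the embryonic mouse aorta, complex by complex. Members were all genes whose symbol starts with Nduf followed by a, b, c, s or v (complex I), is Sdha, Sdhb, Sdhc or Sdhd (complex II), starts with Uqcr (complex III), starts with Cox4 to Cox8 (complex IV) or starts with Atp5 (complex V), without pseudogenes. Each gene was read through probe sets that carry only its symbol, and the probe set with the highest mean was used. The rule gave 89 of the 19938 genes measured, with 43 in complex I, 4 in complex II, 8 in complex III, 17 in complex IV and 17 in complex V. The rule uses gene symbols and mean levels only, but it was set with earlier results of these data known.

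The respiratory chain sits in the inner mitochondrial membrane. Complexes I and II take electrons from NADH and succinate, complex III passes them from ubiquinol to cytochrome c, complex IV hands them to oxygen, and complex V, the ATP synthase, makes ATP from the proton gradient that complexes I, III and IV build. Most subunits are encoded in the nucleus, while some subunits of complexes I, III, IV and V come from mitochondrial DNA and were not analysed here. In smooth muscle and heart, tissue-specific forms of some complex IV subunits are known.

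RNA was taken from ascending and descending aortas of untreated wild-type C57BL/6 embryos aged 13.5 days postcoitum. Each segment had 3 arrays, which makes 6 in all. The study compared these segments because their smooth muscle arises from different embryonic sources, largely neural crest in the ascending and mesoderm in the descending aorta. Strain, genotype and age are the same in both groups, and the segment is the only factor. Replicates are labelled as biological, without the embryo, litter or pool behind each, so errors and p-values measure the spread between these few arrays. Values are log2 expression after the authors' RMA, so a difference of 1 is a factor of 2, and levels are compared only within a gene. In tissue RNA of this kind, fewer cells of a type and less RNA per cell cannot be told apart.

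Both segments carried the smooth muscle gene Acta2 at 13.63 to 13.77 on every array. Of the arrays, 2 stood apart in their correlations or in sex-linked genes. Ascending replicate 3 correlated better with the descending arrays (mean r over genes 0.9958) than with its own group (0.9882). Descending replicate 1 had Xist, the RNA of the silenced X chromosome, at 5.80 against 10.10 to 11.23 on the other arrays, and the Y-linked gene Uty at 8.27 against 6.82 to 7.51. The sex of the embryos is not given in the labels. The median difference of the members is therefore given with all arrays and without each of these 2. Single genes are given mainly with and without descending replicate 1. Ascending replicate 2 had the lowest of limma's array weights, 0.57 against 0.58 for descending replicate 1 and 0.63 for ascending replicate 3. It was the lowest of the 6 arrays in 24.4% of all genes, the most of any array.

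Most respiratory chain genes had a higher mean in the ascending aorta, by small amounts that the test over all 6 arrays did not separate from their spread. The ascending mean was the higher of both in 80 of 89 members, against 43.8% of all genes. The median difference, ascending minus descending, was 0.22 for the members and -0.02 for all genes. In limma's test over all genes, 0 members and 0% of all genes passed an adjusted p of 0.05, and the smallest adjusted p of any gene was 0.53. At an unadjusted p under 0.05 by limma, 22 members were higher in the ascending aorta, against 3.96% of all genes, and 0 were lower, against 5.33%. All 3 ascending arrays lay above all 3 descending arrays in 27 members, against 5.87% of all genes, and below them in 0 members, against 8.95%. Single genes had no exact permutation test, whose p with 3 and 3 arrays is at least 0.1.

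The size of the shift depended on single arrays, among them descending replicate 1. Without that array the ascending mean was higher in 76 of 89 members, against 48.5% of all genes, and the median difference was 0.13, against -0.005 over all genes. In that comparison 13 members had an unadjusted p under 0.05 by limma in the ascending direction, against 2.14% of all genes, and 0 in the other. The groups did not overlap, with the ascending arrays higher, in 30 members, against 10.5% of all genes. Non-overlap is easier to meet with fewer arrays: without ascending replicate 3 it held in 45 members (15.6% of all genes) and without descending replicate 3 in 52 (10.3%). Ascending replicate 1 was the highest of the 6 arrays in 43 of 89 members, against 16.8% of all genes. When it was left out, the median differences were 0.14, 0.12, 0.31, 0.22 and 0.16 for complexes I to V.

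**Figure D1:**
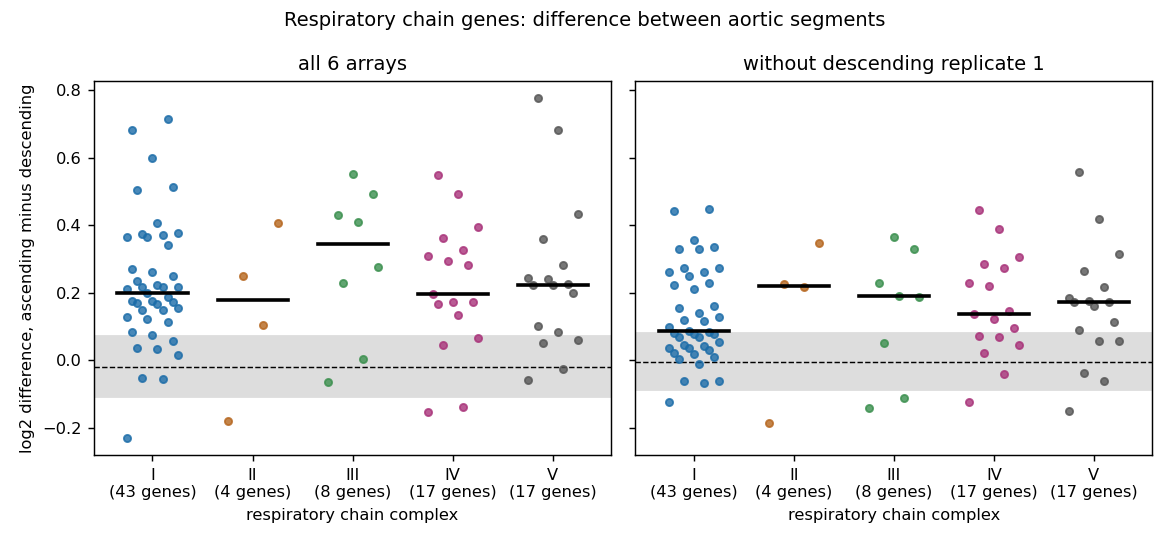
Difference between segments for each of the 89 members, on the log2 scale as ascending minus descending, by complex, with all 6 arrays (left) and without descending replicate 1 (right). Points are genes, thick lines medians of a complex, the dashed line the median of all genes and the grey band their 25th to 75th percentile. All 5 medians lie above the band in both panels, and that of complex I comes down from 0.20 to 0.086.

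Nuclear respiratory chain genes are textbook targets of the transcription factors NRF1, GABP (an ETS factor) and YY1, so their promoters were read for the short letter patterns these factors are known for. Windows of 300 bases, 250 before and 50 after the start site, were at hand for 73 of the 89 members in RefSeq's mouse assembly GRCm38.p6. On either strand, the letters GCANGCGC (NRF1, N for any base), CCGGAAG (ETS) or AAGATGGCG (YY1) occurred in 43 of the 73, or 58.9%, against 27.2% of the measured genes with a window and 17.7% of all windows. By motif, 38.4% of member promoters held the NRF1 letters (15.4% of measured genes with a window, 9.61% of all windows), 24.7% the ETS letters (13.6% and 8.86%) and 9.59% the YY1 letters (2.29% and 1.4%). With only T or C at the open place of the NRF1 letters, the share was 23.3% against 8.45% of measured genes with a window. A match is a description of the letters, not a site in use. The stretches below show the 150 bases before the start site of 1 member per complex, 5′ to 3′ on the gene's own strand. Each is the member with the smallest p that holds a match there, shown in capitals. For these stretches an NRF1 match had to have T or C at the open place.
Ndufb7: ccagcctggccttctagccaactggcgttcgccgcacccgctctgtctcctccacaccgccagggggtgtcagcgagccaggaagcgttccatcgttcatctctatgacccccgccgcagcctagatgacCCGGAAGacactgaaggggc
Sdhb: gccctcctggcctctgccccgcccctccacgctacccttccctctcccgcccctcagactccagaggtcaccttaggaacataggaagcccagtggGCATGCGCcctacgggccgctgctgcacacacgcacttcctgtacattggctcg
Uqcrh: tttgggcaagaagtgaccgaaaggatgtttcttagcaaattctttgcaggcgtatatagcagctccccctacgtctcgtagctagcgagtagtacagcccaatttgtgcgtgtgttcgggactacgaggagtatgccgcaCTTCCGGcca
Cox6b1: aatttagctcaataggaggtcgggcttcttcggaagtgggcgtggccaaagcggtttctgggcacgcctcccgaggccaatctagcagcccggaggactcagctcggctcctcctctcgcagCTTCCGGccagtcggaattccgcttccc
Atp5e: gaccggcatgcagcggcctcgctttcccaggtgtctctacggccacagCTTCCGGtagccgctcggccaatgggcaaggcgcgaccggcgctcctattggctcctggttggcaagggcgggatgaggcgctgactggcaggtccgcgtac
The stretch of Ndufb7 is chr8:83566608-83566757 (plus strand), and its capitals are the ETS letters. Sdhb is shown at chr4:140961121-140961270 (plus strand) with the NRF1 letters. Uqcrh (chr4:116075071-116075220), Cox6b1 (chr7:30626115-30626264) and Atp5e (chr2:174464102-174464251), all on the minus strand, carry the ETS letters in the reverse orientation.

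By complex, with few promoters in each and no test between them, any of the 3 motifs was present in 3 of 3 complex II promoters, 4 of 5 of complex III, 12 of 15 of complex V, 20 of 38 of complex I and 4 of 12, or 33.3%, of complex IV, against 27.2% of the measured genes with a window. The YY1 letters occurred in 5 complex I promoters (Ndufc1, Ndufs4, Ndufa9, Ndufs6 and Ndufs7) and 2 of complex V (Atp5j2 and Atp5j). The transcripts of the factors themselves had small differences, 0.06 for Nrf1, -0.10 for Gabpa, 0.02 for Gabpb1 and 0.07 for Yy1, and none of these passed limma's test.

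Complex I, the NADH dehydrogenase and the largest complex of the chain, had a higher ascending mean in 40 of 43 members, with a median difference of 0.20. An unadjusted p under 0.05 was reached by 10 members (3.96% of all genes) and non-overlap by 12 (5.87% of all genes), all higher in the ascending aorta. Of its 28 accessory subunits, which surround the catalytic core, all 28 had the higher mean in the ascending aorta, with differences from 0.01 (Ndufa10) to 0.72 (Ndufs5). Without descending replicate 1, 26 of 28 kept a higher ascending mean, and the median of the accessory subunits was 0.12 in place of 0.23.

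Ndufb8, a subunit of the membrane arm, had the smallest p of the complex. It stood at 10.63, 10.70 and 10.34 on ascending replicates 1, 2 and 3, and at 9.65, 10.01 and 10.20 on descending replicates 1, 2 and 3. Each ascending array lay above each descending array, with descending replicate 3 closest to the ascending group. The means were 10.55 ± 0.19 and 9.95 ± 0.28 (SD, n = 3 each), a difference of 0.60 with a standard error of 0.16, or 1.51-fold. Without descending replicate 1 the difference was 0.45 (SE 0.13).

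Ndufa7, of the matrix arm, read 9.998, 10.08 and 10.01 in the ascending and 9.61, 9.51 and 9.84 in the descending aorta, in replicate order. The ascending arrays lay close together and above all descending ones, here with descending replicate 2 lowest, and the difference was 0.38 (SE 0.10). Ndufab1, the mitochondrial acyl carrier protein that also serves fatty acid and lipoic acid synthesis, read 10.42, 10.57 and 10.28 against 9.96, 9.98 and 10.21. Its groups were again apart, by 0.37 (SE 0.11), and leaving out descending replicate 1 moved neither gene much, to 0.36 and 0.33.

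Ndufs5, a small subunit on the intermembrane side, had the largest difference of the complex. Its ascending arrays stood at 9.18, 9.33 and 9.08, and its descending arrays at 7.93, 8.58 and 8.92. The groups did not overlap, and descending replicate 1 lay far under the others. The difference of 0.72 (SE 0.23) became 0.44 (SE 0.13) without that array. Ndufb7, whose promoter letters are printed above, read 10.15, 9.97 and 9.76 against 9.11, 9.64 and 9.61, with no overlap. It differed by 0.50 (SE 0.17), and by 0.33 without descending replicate 1.

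Ndufa1, a membrane-arm subunit encoded on the X chromosome, had the widest range of the complex, 1.93. Values were 9.44, 9.10 and 9.18 on the ascending and 7.51, 8.94 and 9.22 on the descending arrays. A single low array, descending replicate 1, set the difference of 0.68 (SE 0.40), which was 0.16 (SE 0.14) without it, and the groups overlapped. Ndufb11, also X-linked, had 11.59, 11.50 and 11.20 against 11.36, 11.39 and 11.31, with no low value on descending replicate 1.

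The 6 core subunits measured, most of which carry the flavin or iron-sulphur clusters, had a median difference of 0.17, and of 0.076 without descending replicate 1. Ndufs3 stood at 11.17, 11.28 and 11.04 in the ascending and at 10.53, 10.89 and 10.98 in the descending aorta. It was the core subunit with the clearest separation, by 0.36 (SE 0.13), although its groups nearly met, and it differed by 0.23 without descending replicate 1. Ndufv2 (0.17, SE 0.11), Ndufs1 (0.19, SE 0.14), Ndufs8 (0.18, SE 0.14) and Ndufv1, the NADH-binding subunit (0.13, SE 0.12), differed by about their standard error or a little more. Without descending replicate 1 they differed by 0.05, 0.10, 0.12 and 0.02, in that order. Of these, Ndufv2 alone had groups that did not overlap, and by a narrow gap, with 11.63 as its lowest ascending and its highest descending value at this rounding. Ndufs7 read 12.40, 12.47 and 12.96 against 12.64, 12.43 and 12.92. Its highest arrays were ascending and descending replicate 3, and its difference of -0.05 (SE 0.18) had no stable sign when single arrays were left out.

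Among the 7 Ndufaf assembly factors, which help build complex I and are not part of it, 6 had the higher mean in the ascending aorta. Their differences ran from -0.06 (Ndufaf2) to 0.22 (Ndufaf5), none had an unadjusted p under 0.05 and none had groups that did not overlap. Ndufa4, named for complex I but since placed in complex IV, read 11.20, 10.94 and 10.90 against 9.93, 10.69 and 10.89. The ascending arrays were higher by a small gap, and the difference of 0.51 (SE 0.24) was 0.22 (SE 0.12) without descending replicate 1. Its paralogue Ndufa4l2, known as a hypoxia-induced gene, read 7.19, 7.19 and 7.28 against 7.67, 7.20 and 7.48. It was the member with the most negative difference, -0.23 (SE 0.12), with overlapping groups, and differed by -0.12 without descending replicate 1.

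Complex II, succinate dehydrogenase, also works in the citric acid cycle and is the only complex encoded wholly in the nucleus. Of its 4 genes, 3 had a higher ascending mean, with a median difference of 0.18, and 2 of them an unadjusted p under 0.05, against 3.96% of all genes. Sdhb, the iron-sulphur subunit, stood at 11.31, 11.13 and 10.96 in the ascending and at 10.61, 10.77 and 10.79 in the descending aorta. The groups were apart on all arrays, and the difference of 0.41 (SE 0.11), or 1.33-fold, was 0.35 (SE 0.12) without descending replicate 1. Sdhd, a membrane anchor, read 10.70, 10.65 and 10.45 against 10.30, 10.27 and 10.47. Ascending replicate 3 and descending replicate 3 met in the middle, and the difference was 0.25 (SE 0.10).

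Sdhc, the other anchor, read 11.42, 11.30 and 11.11 against 11.40, 10.99 and 11.13. Descending replicate 1 was here among the high arrays, and the difference was 0.10 (SE 0.13), or 0.22 without it. Sdha, the flavoprotein that oxidises succinate, read 10.91, 11.07 and 10.98 against 11.16, 11.30 and 11.05. Its difference had the opposite sign, -0.18 (SE 0.09), and the groups overlapped only between ascending replicate 2 and descending replicate 3. The median of these 4 genes moved to 0.11 without descending replicate 2 and to 0.12 without ascending replicate 1.

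Complex III, the cytochrome bc1 complex, had a median difference of 0.34 over 8 genes, of which 7 had a higher ascending mean. Without descending replicate 1 its median was 0.19, and differences between complexes were not tested. The small subunits had the larger differences, and the core proteins Uqcrc1 and Uqcrc2 had none that stood out from their error. Uqcrh, the hinge protein that helps cytochrome c bind, stood at 12.57, 12.53 and 12.27 in the ascending and at 11.82, 12.09 and 12.16 in the descending aorta. The groups did not overlap, and the difference was 0.43 (SE 0.12), or 0.33 (SE 0.11) without descending replicate 1.

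Uqcr11 read 10.39, 10.30 and 10.10 against 9.34, 9.76 and 10.04, and Uqcr10 read 9.93, 9.58 and 9.85 against 8.77, 9.53 and 9.58. Both are small membrane subunits, and in both all ascending arrays lay above all descending ones. Uqcr11 differed by 0.55 (SE 0.18), and by 0.36 without descending replicate 1. For Uqcr10 the difference of 0.49 (SE 0.22) became 0.23 without it. Uqcrq and Uqcrb, which lie against cytochrome b, had overlapping groups, with differences of 0.41 (SE 0.19) and 0.28 (SE 0.18) that became 0.19 and 0.05 without descending replicate 1.

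Uqcrfs1, the Rieske iron-sulphur protein, read 8.69, 8.77 and 8.63 against 8.39, 8.36 and 8.66, and descending replicate 3 lay inside the ascending range. It differed by 0.23 (SE 0.10). Uqcrc1 read 11.53, 11.24 and 11.52 against 11.19, 11.57 and 11.51, and Uqcrc2 read 12.14, 11.94 and 12.11 against 11.98, 12.20 and 12.21. In both core proteins the segments were mixed, with differences of 0.003 (SE 0.13) and -0.07 (SE 0.10), and of -0.11 and -0.14 without descending replicate 1.

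Complex IV, cytochrome c oxidase, had a higher ascending mean in 15 of 17 genes and a median difference of 0.20. An unadjusted p under 0.05 was found for 3 (3.96% of all genes) and non-overlap for 4 (5.87% of all genes), all in the ascending direction. Cox5a, a subunit present in all tissues, read 10.51, 10.56 and 10.20 in the ascending and 9.78, 10.08 and 10.22 in the descending aorta. Ascending replicate 3 lay among the descending arrays, and the difference was 0.40 (SE 0.14), or 0.27 without descending replicate 1. Cox6b1, whose stretch of promoter is printed above, read 12.70, 12.73 and 12.67 against 12.66, 12.38 and 12.57. The groups lay just apart, by 0.17 (SE 0.09), and descending replicate 1 was the highest of its group.

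Cox6a1, the form of subunit 6a found in most tissues, read 12.04, 11.70 and 11.85 against 10.41, 11.74 and 11.80. Only descending replicate 1 was low, and the difference of 0.55 (SE 0.35) was 0.09 (SE 0.12) without it. Cox7a2 showed the same array low, with 10.82, 10.67 and 10.50 against 9.62, 10.45 and 10.43. Its groups did not overlap, but its difference also came down, from 0.49 (SE 0.22) to 0.22 (SE 0.11). Cox4i1 differed by 0.29 (SE 0.16) with all arrays and by 0.12 (SE 0.11) without descending replicate 1.

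Of the 7 forms known from muscle, lung or testis, 5 had a higher ascending mean. Cox7a1, the heart and muscle form, read 6.78, 7.25 and 6.84 against 6.64, 6.58 and 6.73. All ascending arrays were higher, by 0.31 (SE 0.13) on average, with ascending replicate 2 setting much of the gap. Cox4i2, the lung form, read 9.61, 9.27 and 8.95 against 8.96, 8.83 and 8.94. Its ascending arrays were spread widely, with ascending replicate 3 level with the descending arrays, and it differed by 0.36 (SE 0.16). Cox7b2, a testis form at a low signal where RMA compresses differences, read 5.03, 4.84 and 4.87 against 4.64, 4.65 and 4.60. The groups were apart, by 0.28 (SE 0.08), and this held at 0.28 without descending replicate 1.

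The remaining tissue forms had overlapping groups: Cox6b2 differed by 0.17 (SE 0.10), Cox8b by 0.13 (SE 0.11), Cox6a2 by -0.14 (SE 0.11) and Cox8c by -0.15 (SE 0.11). Among the general forms, Cox8a (0.06, SE 0.07) and the X-linked Cox7b (0.19, SE 0.12) also overlapped. Cox7b differed by 0.07 and Cox8c by -0.04 without descending replicate 1. Cox7a2l, known for joining complexes into supercomplexes, read 9.99, 10.05 and 9.69 against 9.82, 9.31 and 9.62. Its groups overlapped through descending replicate 1, and the difference was 0.33 (SE 0.15) with and 0.44 (SE 0.15) without that array. A dimmer probe set of Cox7a2l read 9.08, 9.17 and 8.91 against 8.20, 8.36 and 8.635. There the difference was 0.65, the groups did not overlap and descending replicate 1 was the lowest array.

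**Figure D2:**
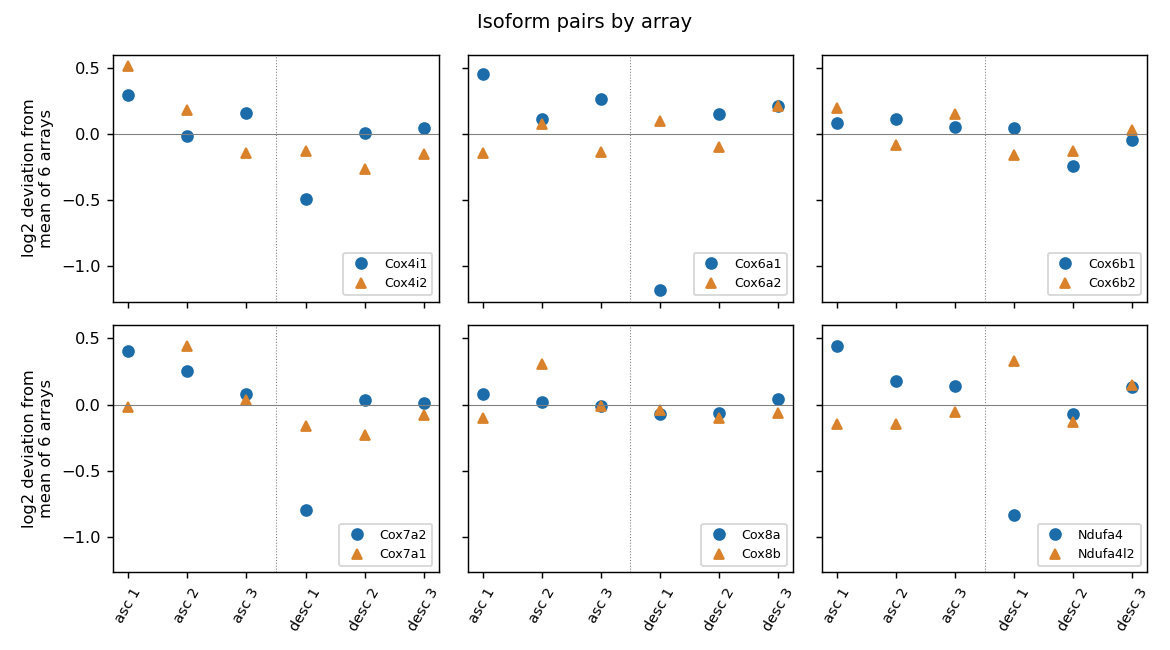
Each panel shows a general form (blue circles) and its paralogue (orange triangles) on the 6 arrays, as log2 deviation of each gene from its own mean over the arrays; the dotted line parts ascending (asc) from descending (desc) arrays. Cox6a1, Cox7a2, Cox4i1, Ndufa4 and, by little, Cox8a have their lowest point on descending replicate 1. Their paralogues Cox6a2, Cox7a1, Cox4i2, Ndufa4l2 and Cox8b do not. The Cox6b pair goes the other way, with Cox6b2 lowest on descending replicate 1 and Cox6b1 on descending replicate 2. Cox7a1, Cox8b and, less so, Ndufa4l2 and Cox6a2 are dim, where RMA compresses differences.

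Complex V, the ATP synthase, had a higher ascending mean in 15 of 17 genes, a median difference of 0.22, and 7 genes whose groups did not overlap, against 5.87% of all genes. Medians were 0.05 in the catalytic head, 0.26 in the peripheral stalk, 0.10 in the c ring and 0.23 in the other membrane part, and these were not tested against each other. In the head, Atp5b, the catalytic beta subunit, stood at 12.84, 12.84 and 12.95 in the ascending and at 12.93, 12.95 and 12.93 in the descending aorta. The segments were level, with a difference of -0.06 (SE 0.07), and the alpha subunit Atp5a1 (0.05, SE 0.10) and the delta subunit Atp5d (-0.03, SE 0.13) likewise had differences within their error. The gamma subunit Atp5c1 differed by 0.24 (SE 0.10) with groups just apart. Without descending replicate 1 these differences were -0.04 for Atp5a1, -0.15 for Atp5d and 0.16 for Atp5c1.

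Atp5e, the small epsilon subunit of the head, was the exception, and its difference of 0.78 (SE 0.28), or 1.71-fold, was the largest of all 89 members. It read 10.12, 10.25 and 9.88 against 8.59, 9.61 and 9.72. The groups did not overlap, descending replicate 1 lay about 1.08 under the mean of the other descending arrays, and without it the difference was 0.42 (SE 0.13).

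Atp5l, subunit g of the membrane part, had the smallest p of all members. It stood at 10.21, 10.36 and 10.16 in the ascending and at 9.31, 9.43 and 9.94 in the descending aorta. The ascending arrays were close together and above every descending array, and the low descending values were on replicates 1 and 2. The means were 10.24 ± 0.11 and 9.56 ± 0.33 (SD, n = 3 each), a difference of 0.68 (SE 0.16) or 1.60-fold, and 0.56 (SE 0.16) without descending replicate 1. Atp5mpl (0.43, SE 0.16) and Atp5md (0.22, SE 0.09), small proteins of the same part, also had groups that did not overlap, and differed by 0.26 and 0.18 without descending replicate 1. All 5 genes of this part had a higher ascending mean, with a median of 0.23, and of 0.26 without descending replicate 1.

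In the peripheral stalk, which holds the head still, all 4 genes had a higher ascending mean. Atp5o, the stalk subunit bound to the head, read 11.25, 11.09 and 11.07 against 10.72, 10.87 and 10.97. Its groups were apart by a small gap, with a difference of 0.28 (SE 0.09), or 0.22 without descending replicate 1. Atp5pb (0.36, SE 0.15) was also apart, while Atp5h (0.24, SE 0.14) and Atp5j (0.06, SE 0.08) overlapped. Leaving out descending replicate 1 gave 0.17 for Atp5pb and 0.09 for Atp5h, and a dimmer probe set of Atp5pb gave 0.10 with all arrays. The genes of the rotating c ring, Atp5g1 (0.20, SE 0.10), Atp5g2 (0.08, SE 0.08) and Atp5g3 (0.10, SE 0.10), encode the same mature protein and all overlapped.

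**Figure D3:**
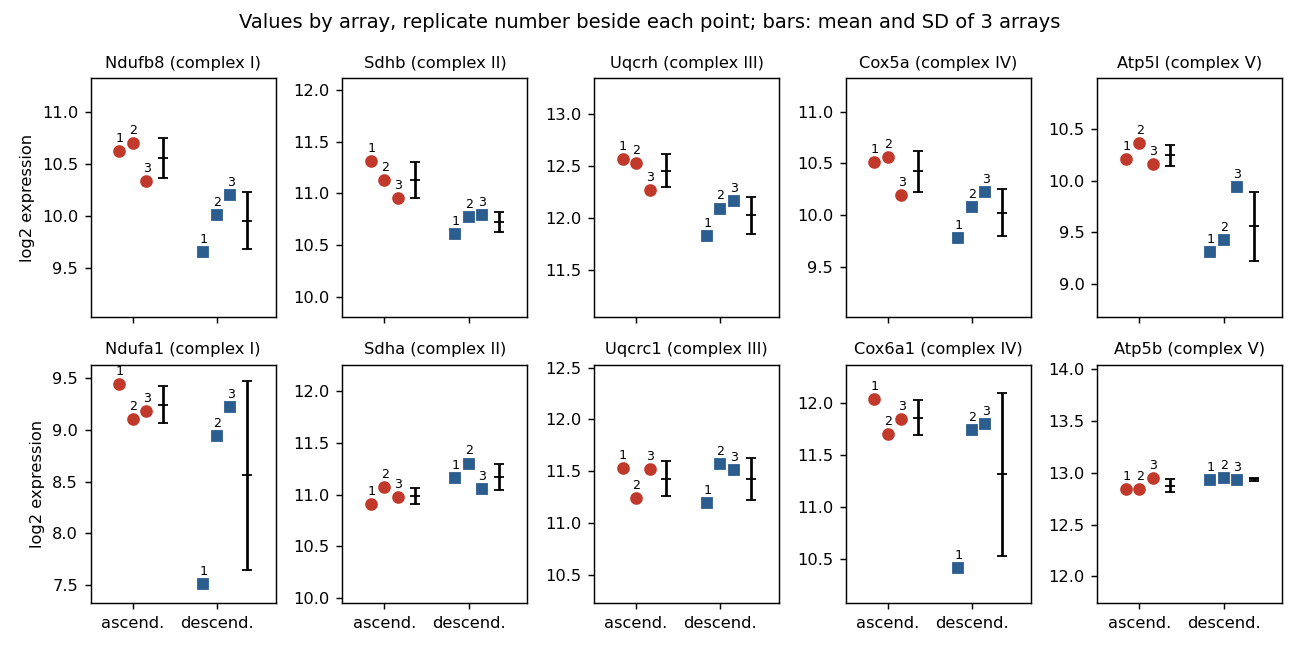
Log2 expression on each array for a member with a small p (top) and a member that shows another pattern (bottom) in each complex; circles are ascending and squares descending arrays with the replicate number above, bars are the mean and SD of 3 arrays, and all panels span the same log2 range. In the top panels the ascending arrays lie above the descending ones except for ascending replicate 3 of Cox5a. In the bottom panels Ndufa1 and Cox6a1 are low on descending replicate 1 only, and Sdha, Uqcrc1 and Atp5b overlap.

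Descending replicate 1 carried the lowest of the 6 values in 57 of 89 members, against 15.7% of all genes. It carried the highest value in 2 of 89 members, against 31.7% of all genes. Against the mean of descending replicates 2 and 3, its members lay at a median of -0.25, and all genes at 0.05. The gap was at least 0.5 downward in 15 members (1.41% of all genes) and at least 0.5 upward in 0 (1.07% of all genes).

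By complex, the medians of this gap, which were not tested against each other, were -0.46 in complex III, -0.30 in complex I, -0.20 in complex V, -0.06 in complex IV and -0.04 in complex II. Within complex IV the 7 muscle, lung and testis forms had a median of 0.04, and the other 10 genes one of -0.34. Of the 7 forms, Cox7b2, Cox8b, Cox7a1, Cox8c and, less so, Cox6a2 are dim. These medians thus also set mostly dim genes against brighter ones. A filter at the median level of all genes kept 12 of the 17 complex IV genes and left out only tissue forms. The lowest genes were small subunits of several complexes: Ndufa1 at -1.56, Cox6a1 at -1.36, Atp5e at -1.08, Ndufa4 at -0.87, Ndufs5 and Cox7a2 at -0.82 each and Uqcr10 at -0.79. Low values were not limited to small subunits. The 6 core subunits of complex I had a median of -0.30, and the 5 genes of the catalytic head of complex V, Atp5e included, one of -0.26. Among them Ndufs3 lay at -0.40, Ndufv2 at -0.36, Ndufv1 at -0.33 and Atp5a1 at -0.26, but Ndufs7 at -0.03 and Atp5b at -0.01. The catalytic subunit Sdha of complex II lay at -0.01. Of the 3 X-linked members, Ndufa1 was the lowest of all, Cox7b lay at -0.38 and Ndufb11 at 0.01. Cytosolic ribosomal protein genes were also low on this array, with a median deviation of -0.27 over 59 genes. The part of RNA quality or of the embryos' sex in these values was not tested.

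**Figure D4:**
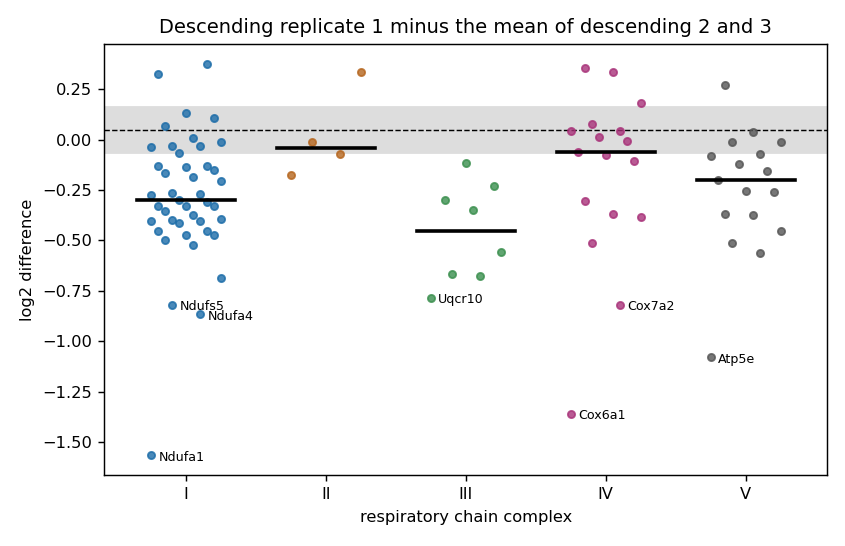
Value on descending replicate 1 minus the mean of descending replicates 2 and 3, on the log2 scale, for each member by complex. Points are genes and thick lines medians; the dashed line is the median of all genes (0.05) and the grey band their 25th to 75th percentile. The medians of complexes I, III and V lie below the band, those of complexes II and IV do not, and Ndufa1 and Cox6a1 are the lowest points.

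Array by array, the members went from high on ascending replicate 1 to low on descending replicate 1. Relative to each gene's mean over the arrays, the members had medians of 0.19 on ascending replicate 1, 0.11 on ascending replicate 2, 0.05 on ascending replicate 3, 0.03 on descending replicate 3, -0.08 on descending replicate 2 and -0.27 on descending replicate 1. Ascending replicate 3 and descending replicate 3 were thus close to each other. Without ascending replicate 3 the median difference was 0.26 for the members and -0.02 for all genes. For complexes I to V it was 0.23, 0.26, 0.38, 0.21 and 0.29. With that array left out, limma called 2 members higher in the ascending aorta, against 2.07% of all genes, and 0 lower. They were Ndufb8, with an adjusted p of 0.045, and Sdhb, with an adjusted p of 0.041. These p-values are likely too small, since the array was left out because of its values. With descending replicate 1 left out as well, limma called 0 members, with adjusted p of 0.063 for Ndufb8 and 0.105 for Sdhb, of 469 genes called among 19938. In that comparison 73 of 89 members had a higher ascending mean, against 9878 of 19938 genes.

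**Figure D5:**
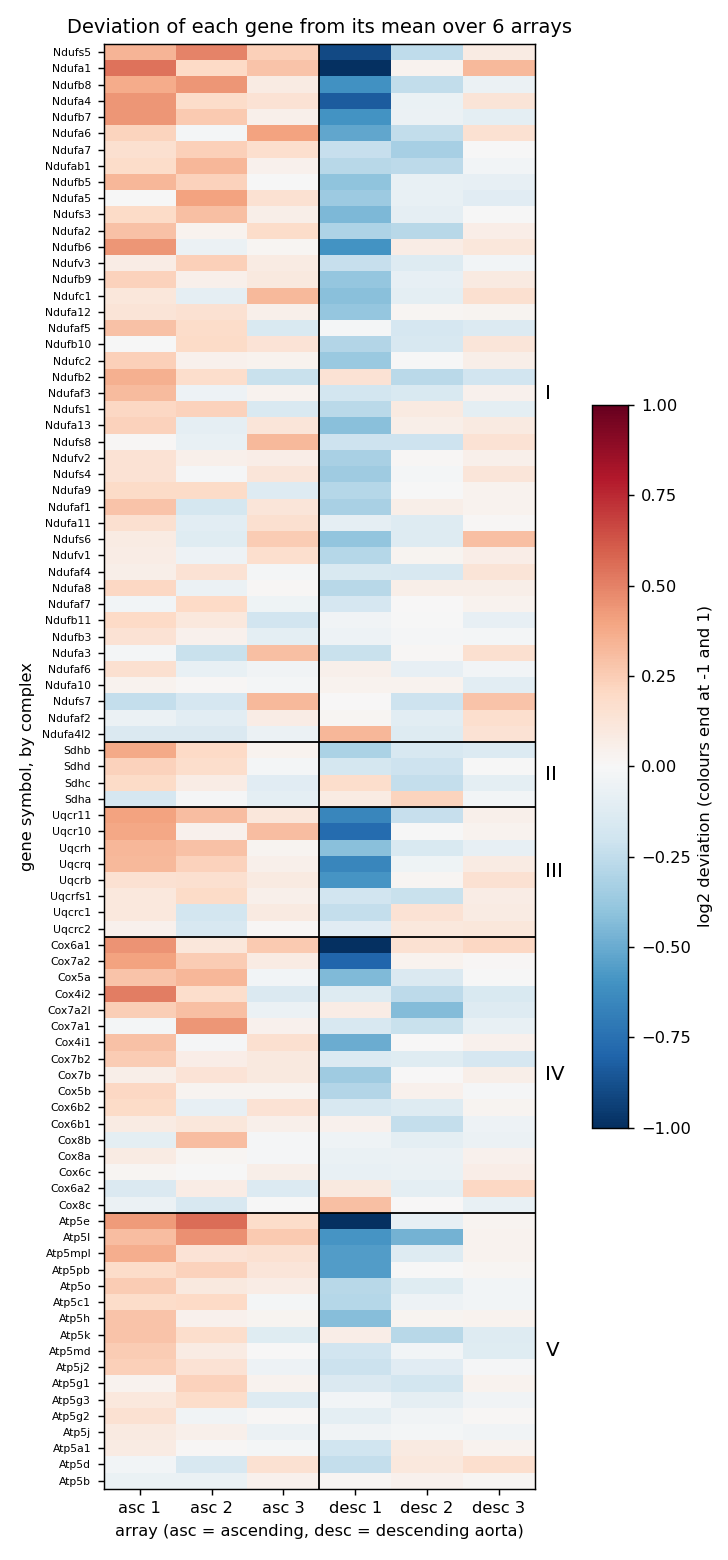
Log2 deviation of each member from its own mean over the 6 arrays (colours end at -1 and 1), with genes in rows by complex and ordered within a complex by their difference, and arrays in columns. Descending replicate 1 is blue for most genes of complexes I, III and V, ascending replicates 1 and 2 are mostly red, and ascending replicate 3 and descending replicate 3 are paler.

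Genes that work with the chain but fall outside the name rule were not tested against the members. Cytochrome c (Cycs) differed by 0.002 and Cyc1, the cytochrome of complex III, by 0.05, while Higd1a (0.33, SE 0.09) and Higd2a (0.25, SE 0.10), small proteins tied to complexes III and IV, had groups that did not overlap. All 4 had a higher ascending mean, with a median of 0.15, and of 0.18 without descending replicate 1. Of 37 assembly factors measured, 29 had a higher ascending mean, 5 had an unadjusted p under 0.05 (3.96% of all genes) and 10 did not overlap (5.87% of all genes), all with the ascending side higher, and the median was 0.10. By smallest p, Cox14 and Dmac2 came first and each differed by 0.28 (SE 0.08). Larger differences, named after their values were seen, were 0.68 for Sdhaf4 and 0.40 for Uqcc2, assembly factors of complexes II and III. Of 15 citric acid cycle genes, 9 had a higher ascending mean, with a median of 0.02, which is near that of all genes.

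Regulators of mitochondrial biogenesis were split, with 7 of 15 higher in the ascending aorta by their means and a median of -0.02. The DNA polymerase gene Polg differed by -0.24 (SE 0.10) and the transcription factor gene Tfb1m by 0.17 (SE 0.08). Of 15 glycolysis genes, 13 had a higher ascending mean, with a median of 0.15. Pfkl (0.35, SE 0.10) and Ldhb (0.39, SE 0.13) had the smallest p, and larger differences were 0.59 for the lactate exporter gene Slc16a3 and 0.56 for Aldoc. Of 17 hypoxia response genes, 8 had a higher ascending mean, with a median of -0.05, and of 0.05 without descending replicate 1, and Bnip3 (0.56, SE 0.16) did not overlap. Of 9 carriers and uncoupling proteins, 6 had a higher ascending mean, with a median of 0.03, and of -0.04 without descending replicate 1. The smallest p were those of the channel gene Vdac2 (0.19, SE 0.14) and the ATP carrier gene Slc25a4 (0.09, SE 0.10), which differed by 0.02 each without that array. None of these genes passed limma's test over all genes with 6 arrays. Without ascending replicate 3, 2 of the 15 glycolysis genes passed as higher, against 2.07% of all genes. They were Slc16a3, with an adjusted p of 0.013 by limma, and Aldoc, with one of 0.048. Aldoc stood at 8.17 on the array left out, its lowest value of the 6. In the other lists of this paragraph and the one before, 0 genes passed.

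Several lists of cell type markers also differed between the segments, in part through single arrays. Of 9 mesothelium and epicardium markers, 8 had a higher ascending mean and 4 did not overlap (5.87% of all genes), with a median of 0.98 and summed log2 levels of 81.5 to 91.6 in the ascending and 78.3 to 80.8 in the descending aorta. The 2 ranges of sums did not overlap, nor did those of the endothelial markers below. Without ascending replicate 3 the median was 1.57, and 6 of 9 passed limma's test, against 2.07% of all genes. Tcf21 differed by 1.41 (SE 0.31) and Lrrn4 by 0.76 (SE 0.18). Of 17 cardiac muscle markers, 16 had a higher ascending mean and 3 did not overlap (5.87% of all genes), with a median of 0.20 and sums of 133.4 to 145.8 against 131.2 to 135.6. Actc1 differed by 0.48 (SE 0.10) and Tnni1 by 1.41 (SE 0.43), while the heart myosin gene Myh6 differed by 0.05. Ascending replicate 2 was the highest of the 6 arrays in 11 of these 17 markers, against 20.9% of all genes.

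Endothelial markers were lower by their means in the ascending aorta in 12 of 12 genes, with a median of -0.40 and sums of 124.5 to 130.8 against 131.8 to 133.9. Esam (-0.47, SE 0.12) and Erg (-0.36, SE 0.11) did not overlap. Macrophage markers were lower by their means in 11 of 12, with a median of -0.23 and sums of 96.7 to 110.9 against 108.2 to 109.8. Ascending replicate 2 was the lowest array in 11 of these 12 markers, against 24.4% of all genes. Their median deviation from each gene's mean over the arrays was -0.79 on that array. It was 0.03 on ascending replicate 1, 0.37 on ascending replicate 3 and 0.07 to 0.19 on the descending arrays. The lower ascending mean thus came largely from ascending replicate 2, which weighs more when another ascending array is left out. Without ascending replicate 3, the highest array in 7 of the 12, the median was -0.45. In that comparison 3 of 12 passed limma's test as lower, against 521 of 19938 genes. Lyve1 (-2.13, SE 0.59) and Mrc1 (-1.10, SE 0.36) did not overlap. Smooth muscle markers had no common direction, with 5 of 10 higher in the ascending aorta, a median of 0.01 and sums of 105.7 to 110.6 against 106.8 to 107.7, and among them Des differed by 1.41 (SE 0.49) and Mylk by -0.27 (SE 0.10).

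Erythroid (5 of 8 higher, median 0.03), skeletal muscle (7 of 11, 0.02) and brown fat markers (7 of 9, 0.01) lay near the median of all genes, and neural markers (1 of 7, -0.16) below it. Summed log2 levels were 74.0 to 76.5 against 75.2 to 77.1, 76.4 to 78.9 against 77.5 to 78.4, 60.3 to 61.2 against 60.5 to 62.4 and 52.2 to 53.8 against 53.2 to 55.1, in that order. The genes with the smallest p of each list, in the same order, were Alas2 (-0.60, SE 0.33) and Slc4a1 (-0.22, SE 0.13), Myog (0.41, SE 0.21) and Myh8 (-0.24, SE 0.14), Fabp4 (-0.88, SE 0.24) and Pparg (-0.23, SE 0.11), and Elavl4 (0.61, SE 0.24) and Sox10 (-0.35, SE 0.16). The part of these cell types in the differences of the respiratory chain genes was not tested.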

How the data were processed

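The authors deposited log2 expression values of probe sets, processed with RMA and Partek 6.6 per the submitters' processing notes, which give no settings. The genome build behind the probe sets is not given in the sources used here. RMA makes the distributions of the arrays alike and compresses small signals. Of 35556 probe sets, 21789 had 1 gene symbol, 1621 several and 12146 none in the platform's annotation. Per gene the probe set with the highest mean was kept, without a filter, which left 19938 genes. Of 17 members with several probe sets, 16 had the same sign in all of them, with Cox6c as the exception. Cox7c, Ndufb4 and Ndufb4b were reached only through probe sets with several symbols and are no members. Many members have processed pseudogenes, so a probe set can also read a copy.

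Segments were compared by limma 3.58.1 (lmFit and eBayes, R 4.3.3) with the segment as the only term, two-sided, over all genes, and Benjamini-Hochberg adjusted p-values were read at 0.05. Differences are ascending minus descending. Tables, plots and motif searches used Python 3.11.15, pandas 2.3.3 and matplotlib 3.10.9. In simulated data with independent noise and no deviating array, the test recovered 96% of log2 changes of 1 and 99.4% of changes of 2. Of its calls there, 6.32% were false. Changes as small as those of the members were not simulated. Members, lists and alternatives were chosen with earlier results of these data known. The text names all members of complexes II and III, and in complexes I, IV and V the 5 with the smallest p and the 3 with the widest range, the core subunits of complex I, the tissue forms of complex IV, and 2 genes of each other list. Other members, and Cycs, Cyc1, Sdhaf4, Uqcc2, Slc16a3, Aldoc, Myh6, Acta2, Xist, Uty and the motif factors, were named after their values were seen. The alternatives, 20 in all, covered scaling, filters, probe sets, variance models, array weights, a replicate block and arrays left out. The NRF1 letters with only T or C were added after seeing the data.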

Additional observations from a re-analysis of the deposited data

How the results depend on the processing

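Repeated quantile normalization, median-centring, the mean of all probe sets and added several-symbol probe sets were tried. So were filters at the 25th and 50th percentile and other variance models. None moved any of the 5 complex medians beyond the spread between replicates, and all left 0 genes passing. Other variance models change only the errors, and a filter only which genes are kept, so neither can move the difference of a gene. Leaving out single arrays gave 0 to 933 passing genes, 0 to 1 passing members in complex I and 0 to 1 in complex II. Over the same fits the complex IV median ran from 0.14 to 0.27, members not overlapping numbered 28 to 52 in the ascending (8.76% to 15.6% of all genes) and 0 to 3 in the other direction (11.8% to 18.9%), and the differences ran from -0.11 to 0.10 for Uqcrc1 and from -0.23 to 0.076 for Ndufs7. With ascending replicate 3 and descending replicate 1 both left out, 469 genes passed, the medians were 0.30 in complex II and 0.12 in complex IV, 46 and 5 members did not overlap (22.6% of all genes each way), and Uqcrc1 (-0.16) and Ndufv1 (-0.036) turned negative. With array weights Uqcrc1 was at -0.029. Fewer arrays make non-overlap easier; the cause of the other changes was not tested. Same-numbered arrays did not deviate together (correlations of -0.08, -0.05 and 0.02), so the numbers were not taken as pairs. With the replicate block 0 genes passed. In this balanced layout the block cannot change a difference. The complex medians were thus bound to stay at 0.20, 0.18, 0.34, 0.20 and 0.22 for complexes I to V. A comparison of protein sequences between isoforms was not run. With 3 arrays in each segment, small differences cannot be resolved, and dim genes such as Cox7b2 are compressed by RMA.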
